A study of Arabidopsis thaliana with 12 samples.

Results

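The 17 genes described here were chosen by their deposited spot intensities, as probes annotated to a single gene that read lower in plants grown under PSII-specific light than under PSI-specific light. A probe was taken if its highest value among the 6 PSII-light samples lay below its lowest value among the 6 PSI-light samples and its mean over the 12 samples was at least 0.3. Of 3439 probes on the array, 692 carried 1 gene, and 25 of these met both conditions. Of those 25, 7 were left out by name, photosystem genes and others with larger differences than most members. In all, 13 genes were named for leaving out, plastid ribosomal protein genes included. Size alone did not set the 7 apart, since the member AT2G36480 had a larger ratio than the left-out AT3G50130 and AT5G11550. A further 1, AT1G31790, was left out because it encodes a pentatricopeptide repeat protein. The light contrast chose the members, so every intensity, ratio and log2 difference between the regimes below is a description and supports nothing.

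Photosystem I and photosystem II of the chloroplast absorb light of somewhat different colours, so light that favours one of them unbalances electron flow between both. The redox state of the carriers that link the photosystems is known to act on state transitions, on the transcription of plastid genes and, through signals that leave the plastid, on nuclear genes. The 17 genes carry nuclear locus names, and their products range from an enzyme of histidine biosynthesis to RNA-modifying and membrane protein families. No description of function came with the tables used here beyond gene symbols and synonyms, so the roles below are general knowledge of Arabidopsis gene families, given as background, and a gene without a role below is one for which none is claimed.

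Both groups were wild-type Arabidopsis thaliana of ecotype C24, 6 samples from PSI-specific light and 6 from PSII-specific light, with total RNA measured by array. The labels give no age, tissue, light source or duration, and no separate plants or cultures for the samples, so the spread between samples may be technical. With these 2 regimes, the photosystem that was favoured and any other property of the light cannot be told apart. In each group the sample pairs 1 and 2, 3 and 4, and 5 and 6 shared their deviations from the group mean, and each pair was averaged and counted as 1 replicate, called replicates 1, 2 and 3 (n = 3 per group). Array medians lay between 0.596 and 0.645 in PSI light and between 0.632 and 0.687 in PSII light, so the arrays of PSII light tended to the higher median on the values as deposited. Intensity is in arbitrary units and depends on the probe as well as the transcript, and in RNA from many cells, fewer cells of a type and less RNA per cell cannot be told apart.

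On the values as deposited, lower readings without overlap were the less common direction. The 25 probes were 3.61% of the 692, while 64 probes (9.25%) were higher in PSII light without overlap. Over all 3439 probes 175 (5.09%) were lower and 304 were higher. The split moved with scaling, to 30 lower and 48 higher single-gene probes after quantile normalization and to 32 lower and 31 higher after division by each array's median. Over all probes it turned round, to 231 lower and 199 higher after quantile normalization and to 249 lower and 152 higher after division by the median. The 17 members differed modestly, which is partly set by the rule, since genes left out by name had larger differences than most members. AT4G35660, left out, had a mean of 6.37 in PSI light and 1.25 in PSII light. Mean intensity was 12.2% to 56.0% lower in PSII light, with a median of 27.0%. The ratio of mean PSI-light to mean PSII-light intensity had a median of 1.37 over the members and 0.92 over the 569 single-gene probes with a mean of at least 0.3. The ratio reached 1.5 for 3 members and stayed under 1.3 for 7.

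**Figure D1:**
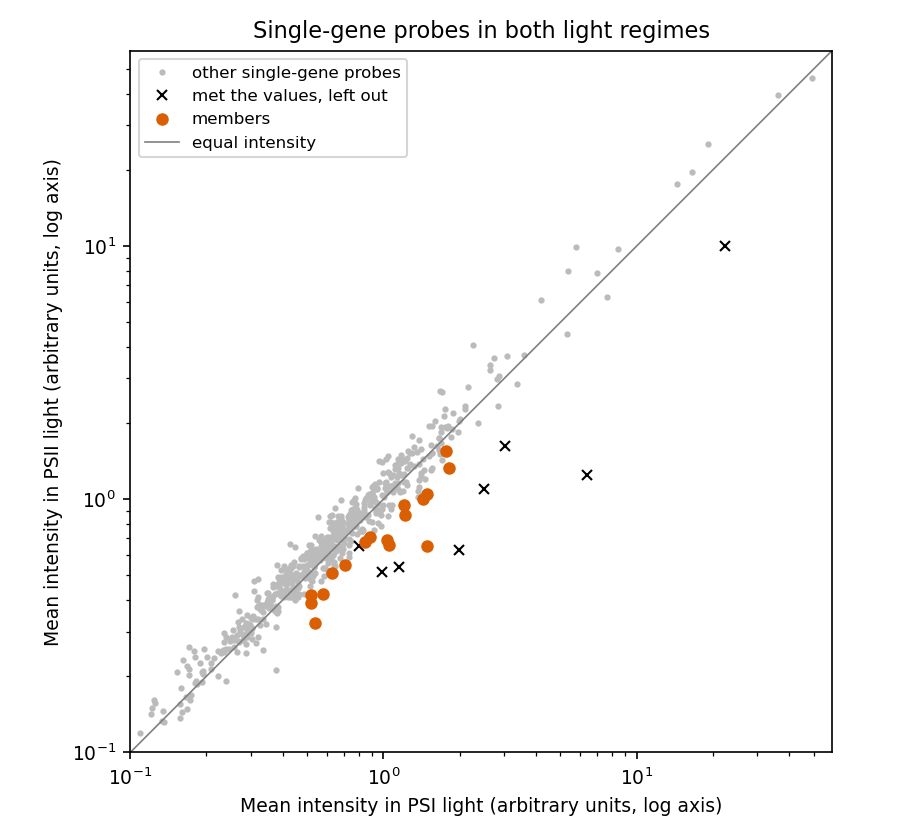
Mean deposited intensity in PSII light against PSI light (arbitrary units, log axes) for single-gene probes, with the 17 members as filled circles and the 8 probes that met the values but were left out as crosses; 45 probes with a mean under 0.1 in either light lie off the axes. Apart from AT2G36480, with a ratio of 2.27, the members sit just below the line of equal intensity. Most of the crosses lie farther from it than those members.

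The metabolic enzymes among the members were AT-HF and AT4G34310. AT-HF (HISN4, AT4G26900) makes imidazole glycerol phosphate, an intermediate of histidine biosynthesis, joining a glutamine amidotransferase to a cyclase in 1 protein. Its intensity was 0.480, 0.552 and 0.571 in PSI light (lowest, median and highest of 6 samples) and 0.272, 0.317 and 0.383 in PSII light. The lowest PSI-light sample of AT-HF stood 25.6% above the highest PSII-light sample, a wide gap for this set. Its means were 0.536 ± 0.0390 and 0.324 ± 0.0224 (SD, n = 3), a ratio of 1.65. Of the 11 genes with a HISN name in the gene table, AT-HF was the 1 with a probe of its own, and 2 further probes listed a HISN gene beside others, so the rest of the pathway cannot be read gene by gene.

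AT4G34310 belongs to the alpha/beta-hydrolase superfamily, a large group of enzymes that includes lipases and esterases. It read 1.15, 1.19 and 1.32 in PSI light (lowest, median and highest) and 0.850, 0.949 and 1.02 in PSII light. The groups lay 12.4% apart at their nearest samples. The replicate means of AT4G34310 were the least scattered of the 17 in PSII light, with a coefficient of variation of 1.74% there and 3.72% in PSI light, and the ratio of means was 1.27.

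Members of families that act on RNA and translation were AT4G21770, AT3G18870 and AT1G24240, with ratios from 1.25 to 1.49. AT4G21770 is of the pseudouridine synthase family, whose enzymes isomerise uridine in transfer and ribosomal RNA. Its intensity was 0.885, 1.03 and 1.18 in PSI light (lowest, median and highest) and 0.620, 0.673 and 0.774 in PSII light. In both regimes AT4G21770 was highest in replicate 3 and lowest in replicate 2, and the ratio within a replicate number stayed between 1.43 and 1.53. AT3G18870 is of the mTERF family, proteins that bind nucleic acids in plastids and mitochondria and take part in organelle gene expression. It read 1.29, 1.5 and 1.71 in PSI light and 0.956, 1.07 and 1.13 in PSII light. Replicate 3 of AT3G18870 was the highest PSI-light replicate and the lowest PSII-light replicate, so its ratio ran from 1.23 in replicate 2 to 1.71 in replicate 3.

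AT1G24240 encodes a protein of the ribosomal protein L19 family. It read 0.809, 0.841 and 0.929 in PSI light (lowest, median and highest) and 0.577, 0.675 and 0.798 in PSII light. The groups were 1.36% apart at their nearest samples, and the ratio within replicate 3 was 1.07. The probe numbered next to it, 2595, was not listed in the annotation and was 2.08 times as bright, and it also read lower, with 1.99 under PSI and 1.18 under PSII light. Whether signal from that probe reached AT1G24240 was not tested.

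AT1G44830 and AT2G39100 come from families of transcription and protein turnover. AT1G44830 encodes a DNA-binding protein of the AP2/ERF family of transcription factors. It read 1.70, 1.82 and 1.92 in PSI light (lowest, median and highest) and 1.13, 1.31 and 1.53 in PSII light. Its PSI-light replicates were close together, with a coefficient of variation of 2.56%, and its PSII-light replicates less so, at 12.4%. AT2G39100 encodes a protein of the RING/U-box superfamily, many members of which attach ubiquitin to target proteins. It read 0.946, 0.974 and 1.24 in PSI light and 0.569, 0.656 and 0.749 in PSII light. At 26.4%, the gap between the nearest samples of AT2G39100 was the largest of the 17, and the ratio of its means was 1.59. The probes of AT2G39100 and AT1G44830 carry numbers 1331 and 1333, and probe 1332 between them was dim, at 0.139 and 0.143 under PSI and PSII light.

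Membrane and stress protein families gave AT5G19750, MAMI and AT2G46300. AT5G19750 is of the Mpv17/PMP22 family of small organelle membrane proteins. It read 1.03, 1.22 and 1.42 in PSI light (lowest, median and highest) and 0.732, 0.868 and 1.03 in PSII light. Its groups were only 0.0114% apart at their nearest samples, both of replicate 3, although the ratio of means was 1.40. The ratio of AT5G19750 was 1.59 in replicate 1, 1.58 in replicate 2 and 1.09 in replicate 3.

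MAMI (AT5G54110) is named in the gene table as a membrane-associated mannitol-induced gene. It read 1.29, 1.43 and 1.58 in PSI light (lowest, median and highest) and 0.699, 1.04 and 1.26 in PSII light. The replicate means of MAMI in PSII light were 1.25, 0.722 and 1.04, and the ratio was 1.80 in replicate 2, 1.25 in replicate 1 and 1.38 in replicate 3. AT2G46300 is of the late embryogenesis abundant hydroxyproline-rich glycoprotein family. It read 1.67, 1.72 and 1.92 in PSI light and 1.43, 1.54 and 1.66 in PSII light, the smallest ratio of the 17 at 1.14. Its probe, 2667, lies 2 numbers from that of LHB1B2, an antenna gene of photosystem II with 9.74 times its mean intensity (22.3 in PSI light and 10.03 in PSII light). Probe 2666 between them read 1.18 and 1.17, and whether signal from LHB1B2 reached AT2G46300 was not tested.

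**Figure D2:**
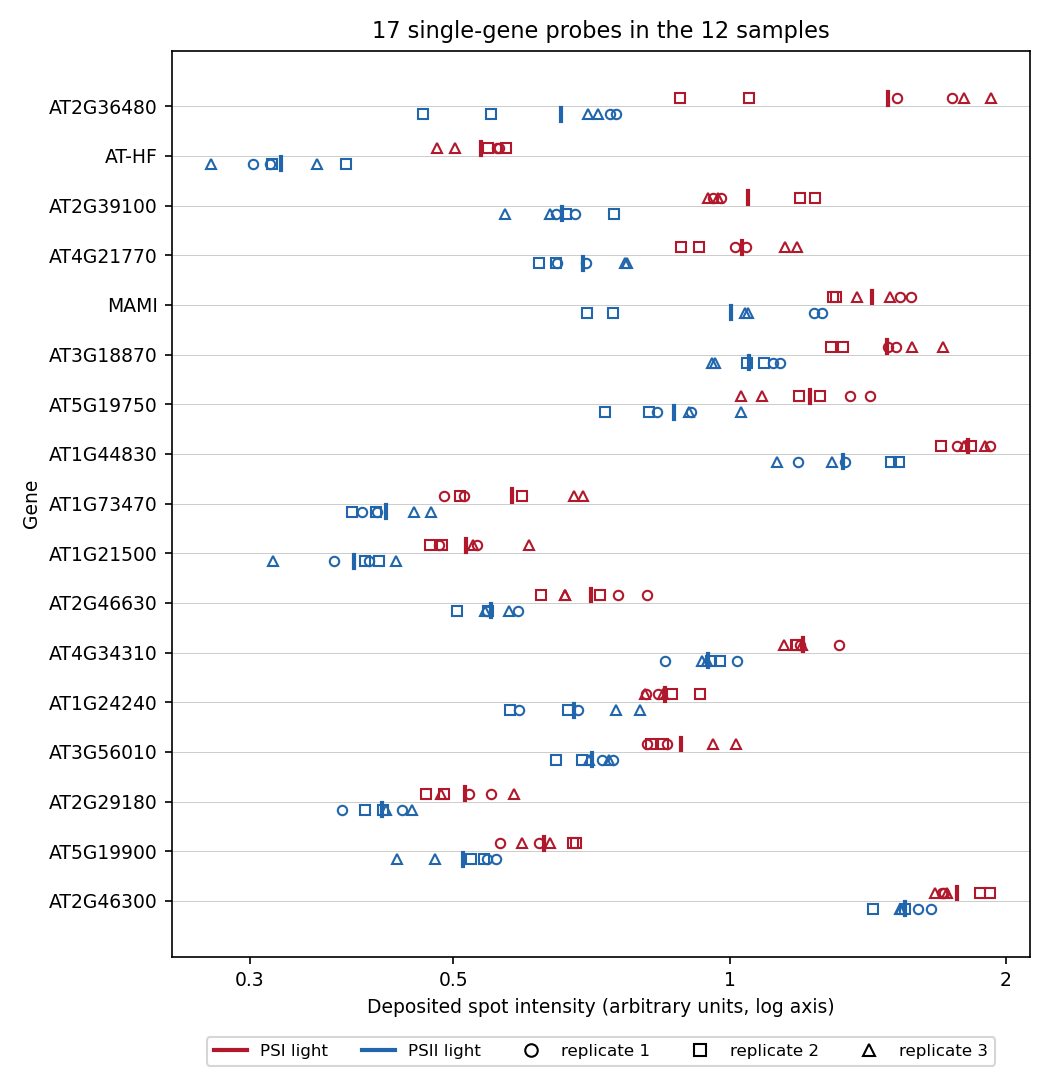
Deposited intensity of the 17 genes in the 12 samples (arbitrary units, log axis), ordered by the ratio of group means; red is PSI light, blue is PSII light, the symbol gives the replicate and the vertical bar the mean. AT-HF and AT2G39100 show a clear gap between colours, while AT5G19750, AT2G46300 and AT5G19900 nearly touch.

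For 7 members no role is given. AT2G36480 had the largest ratio of the 17, at 2.27. It read 0.883, 1.64 and 1.92 in PSI light (lowest, median and highest) and 0.464, 0.710 and 0.752 in PSII light. Its scatter was the widest of the 17 in PSI light, with a coefficient of variation of 31.3%. Its replicate means were 1.64, 0.967 and 1.86 in PSI light and 0.747, 0.507 and 0.710 in PSII light. Replicate 2 of AT2G36480 was low under both regimes, and the ratio within a replicate number was 2.19, 1.91 and 2.62.

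AT2G46630 read 0.623, 0.692 and 0.813 in PSI light (lowest, median and highest) and 0.505, 0.545 and 0.588 in PSII light. AT1G73470 read 0.489, 0.554 and 0.693 in PSI light and 0.388, 0.413 and 0.473 in PSII light. AT1G21500 read 0.471, 0.506 and 0.604 in PSI light and 0.318, 0.403 and 0.433 in PSII light. AT1G21500 was the 1 member whose largest ratio between repeat samples, 1.36, exceeded its ratio between light regimes, 1.32. Its neighbour by number, probe 3602, which lists several genes, was 3.49 times as bright and read higher in PSII light without overlap (1.33 in PSI light and 1.84 in PSII light).

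The remaining genes, AT3G56010, AT2G29180 and AT5G19900, had ratios of 1.25, 1.23 and 1.23. AT3G56010 read 0.812, 0.850 and 1.02 in PSI light (lowest, median and highest) and 0.646, 0.715 and 0.747 in PSII light, with the highest PSI-light values in replicate 3. AT2G29180 averaged 0.515 ± 0.0328 under PSI light against 0.418 ± 0.0154 under PSII light (SD, n = 3). AT5G19900 averaged 0.628 ± 0.0447 and 0.512 ± 0.0498 (SD, n = 3), and its groups lay 1.01% apart at their nearest samples. In the TAIR10.1 gene order AT5G19750 and AT5G19900 had 16 protein-coding genes between them, the closest pair among the members, so no members were direct neighbours on a chromosome.

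The members did not share a common pattern over replicates. PSI-light replicate 3 was the highest PSI-light replicate for 7 members, replicate 1 for 6 and replicate 2 for 4. Over the 569 single-gene probes with a mean of at least 0.3, replicate 3 was highest for 17.2%, replicate 1 for 37.3% and replicate 2 for 45.5%. In PSII light replicate 2 was lowest for 9 of the 17, which is 52.9%, and for 43.1% of the 569. The replicates had the same order in both regimes for 3 of the 17 members, AT4G21770 among them, and for 26.0% of the 569 probes. In 8 members the replicate highest in PSI light was the lowest in PSII light, as in AT3G18870. The matching share of the 569 probes is not given, so nothing is read from that count. The median ratio over the members was 1.34 within replicate 1, 1.28 within replicate 2 and 1.38 within replicate 3. The largest of the 3 ratios fell in replicate 3 for 7 members, in replicate 1 for 6 and in replicate 2 for 4. The median coefficient of variation over replicates was 8.90% in PSI light and 7.92% in PSII light, near the 9.46% and 8.75% of the 569 probes. A rule that asks for no overlap favours low scatter, so nothing is read from this comparison.

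**Figure D3:**
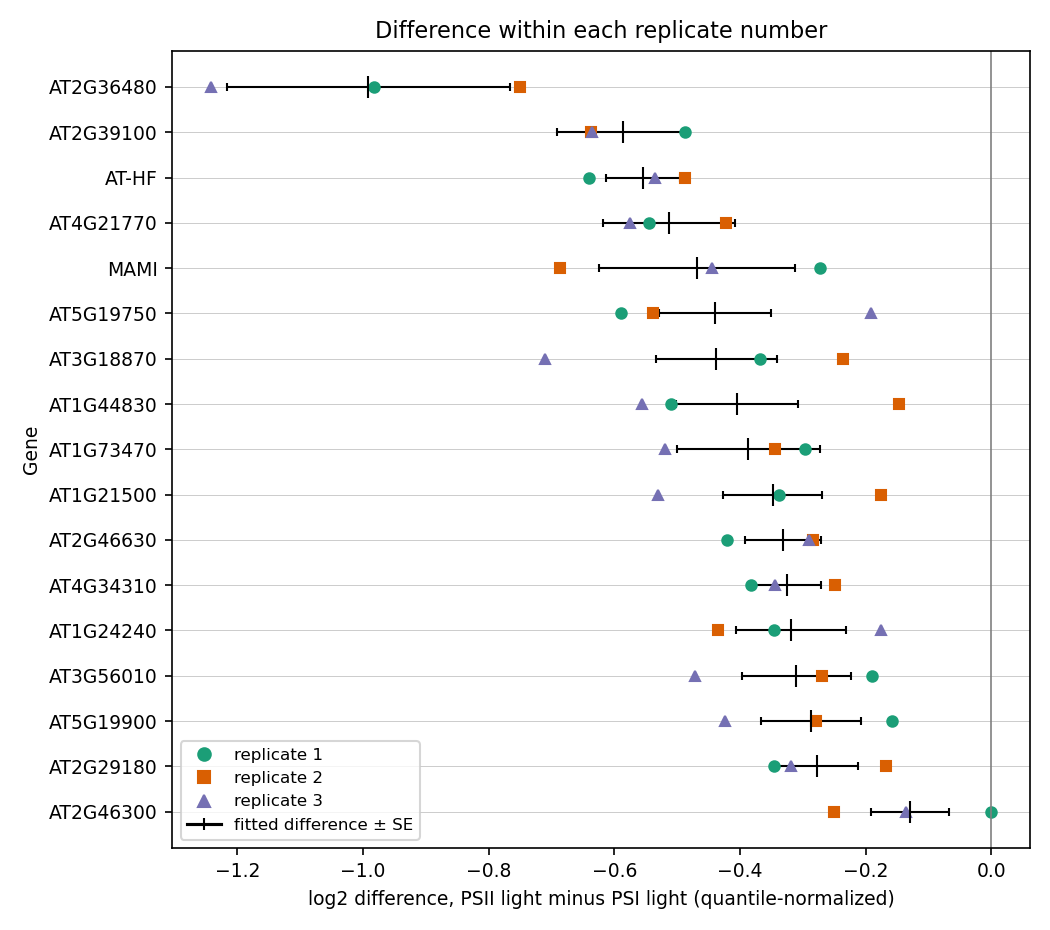
Log2 difference (PSII light minus PSI light) of quantile-normalized intensity for each member within replicate numbers 1, 2 and 3, with the fitted difference and its SE in black. AT4G34310, AT2G46630, AT2G39100, AT-HF and AT4G21770 hold their 3 points close together. AT2G36480, AT3G18870, MAMI, AT1G44830 and AT5G19750 spread, and AT2G46300 lies close to 0 in replicate 1.

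The edge of the rule ran through closely spaced values. The lowest PSI-light sample was less than 5% above the highest PSII-light sample for 7 of the 17, and at least 20% above it for 2, AT2G39100 and AT-HF. Just outside, AT4G08940 had a lowest PSI-light value of 1.22 and a highest PSII-light value of 1.23, a ratio of 0.991, and a ratio of means of 1.25. AT4G27390 and ATSIK followed with ratios between nearest samples of 0.982 and 0.981. AT4G03150 had groups 27.5% apart but a mean of 0.294, just under 0.3, where the dimmest member, AT-HF, had 0.430. Leaving out samples can only admit probes to such a rule. The number admitted was 35 without PSI-light replicate 2 and 28 without PSII-light replicate 1, against 17 with all replicates. The matching share over all probes is not given for these omissions, so nothing is read from the rise. After quantile normalization AT2G46300 overlapped between the groups, and the other 16 did not.

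**Figure D4:**
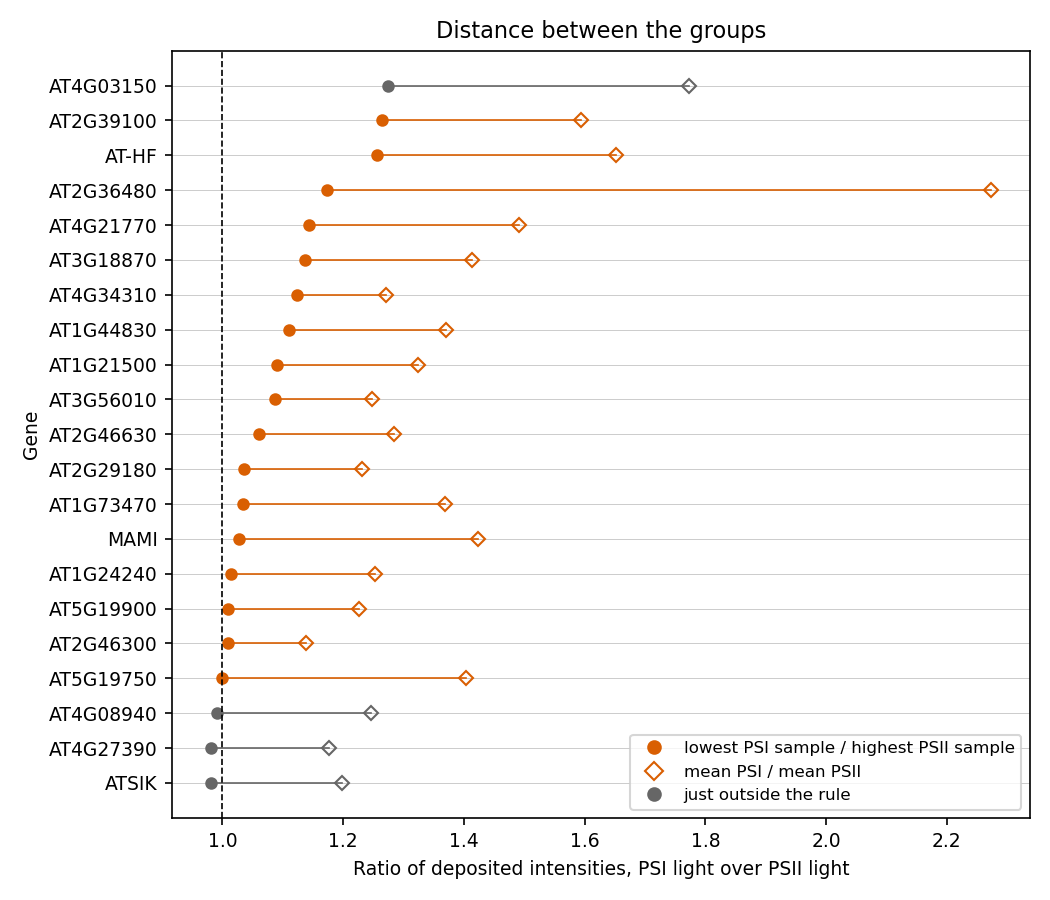
Ratio of PSI-light to PSII-light intensity for the 17 members (orange) and the 4 probes just outside the rule (grey), as the lowest PSI-light over the highest PSII-light sample (filled circles) and as the ratio of means (diamonds). Circles of 7 members lie within 5% of the dashed line of equality, and AT4G03150 is outside because of its mean of 0.294.

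On log2(intensity + 0.193) after quantile normalization, a scale that understates the difference of dim probes, the members' differences ran from -0.99 ± 0.23 for AT2G36480 to -0.13 ± 0.06 for AT2G46300 (SE, limma). The median was -0.39, beside 0.03 over single-gene probes and 0.01 over all probes. AT4G21770 stood at -0.51 ± 0.10, MAMI at -0.47 ± 0.16, AT5G19750 at -0.44 ± 0.09 and AT3G18870 at -0.44 ± 0.10 (SE). AT1G44830 was at -0.40 ± 0.10 and AT1G24240 at -0.32 ± 0.09 (SE). The limma fit over all 3439 probes, which gave these SEs, left out the pairing of replicate numbers. In it 108 probes (3.14%) passed a Benjamini-Hochberg adjusted p under 0.05, 82 of them (2.38%) lower in PSII light. Of the members 4 passed, AT-HF, AT2G39100, AT4G34310 and AT2G46630, a count from which nothing is read because the same contrast chose them.

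That count depended on the settings. With the replicate number as a block it was again 4, when 3% of all probes passed. Of these 4, AT-HF and AT2G39100 were shared with the fit without a block and AT4G21770 and AT2G36480 were not. On values as deposited AT-HF alone passed, when 2.68% of all probes did. With median centring 12 members passed, when 6.63% of all probes did. On leaving out replicate 1 of PSI light, 0 members and 0.582% of all probes passed the limma fit. At an unadjusted p under 0.05 that fit counted 15 members and 15.4% of all probes. On leaving out replicate 1 of PSII light 0 members and 0.901% of all probes passed (16 and 17.7% unadjusted), and without replicate 3 of PSII light 0 and 0.64% (16 and 18.2% unadjusted). The unadjusted counts of members follow from how they were chosen. On leaving out replicate 2, 2 members passed for PSI light, where 4.07% of all probes did, and 2 for PSII light, where 1.19% did. Without replicate 3 of PSI light 1 member and 0.814% of all probes passed. AT-HF was among the members in these last 3 fits. AT2G39100, AT4G34310 and AT2G46630 passed in 0 of these 6 fits.

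Brightness was the other property the members could be compared on. The 17 means ran from 0.430 to 1.66, with a median of 0.853 against 0.702 for the 569 single-gene probes with a mean of at least 0.3. Single-gene probe means reached 47.8, far above the brightest member, AT2G46300. Of the 17, 5 lay below the median of all 692 single-gene probes, AT-HF, AT1G21500, AT2G29180, AT1G73470 and AT5G19900. The 692 include probes with a mean under 0.3, which no member could have. Below the median of the 569 lay these genes and AT2G46630, at 0.628. Members had 32 measured neighbours 1 number away, with probe 1332 counted for both AT2G39100 and AT1G44830. Of these neighbours 1 was itself lower in PSII light without overlap and 1 was higher, those beside AT1G24240 and AT1G21500. Over all 3439 probes 5.09% were lower and 8.84% higher without overlap. At 2 numbers away, LHB1B2 beside AT2G46300 was lower without overlap, as were AT2G39100 and AT1G44830 beside each other. At 3 numbers away, those lower without overlap were beside AT4G21770, MAMI, AT1G44830, AT1G24240 and AT5G19900, and none was higher. The probe near AT4G21770, 265, was 9.86 times as bright, with 10.69 in PSI light and 6.33 in PSII light. Whether signal from it reached AT4G21770 was not tested. The sources used here do not say how probe numbers relate to positions on the array.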

How the data were processed

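The deposited table held 1 spot intensity per probe for each of 12 samples, on a linear scale from 0 to 100; the sources used here do not state how the authors corrected background or scaled the arrays. Array sums ranged from 3642.89 to 3767.52, and precision is limited by the number of arrays. The rule was read on intensities as deposited. Members and lists were chosen with earlier results of these data known. For the fit, log2(intensity + 0.193) was quantile normalized (0.193 is the 5th percentile of positive values), since array medians differed by 0.158 on the log2 scale. Repeat samples correlated in their deviations at 0.472 to 0.704 and all other pairs at -0.105 or below, an inference from values that the labels do not state, and were averaged. The main test was limma 3.58.1 (lmFit, then eBayes with a trend; R 4.3.3) on all 3439 probes, two-sided, p-values being adjusted by Benjamini-Hochberg; the code was tested on simulated data first. Same-numbered replicates of both groups deviated together (correlations 0.349, 0.371 and 0.355), so the numbers pair the samples. That pairing comes from the labels' shared numbers and the values. The main fit left it out, so its SEs and its list of passing members are those of an unpaired model. With the replicate number as a block, AT4G34310 and AT2G46630 no longer passed, while AT4G21770 and AT2G36480 did.

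Gene names came from a platform annotation dated 2016, and 690 of 692 single-gene probes matched the TAIR10.1 gene table. All 17 members are named, with values of samples for at most 4 members of each role group and for members that passed the fit. AT3G56010, outside both, has them as well. Function patterns planned for gene descriptions could be read only on symbols and synonyms; they placed 46 of the 692 probes and 0 members, so roles were assigned by hand and other genes of a function could not be counted. The planned search of promoters was not run, and sequences were not analysed here. Alternatives were other scalings, a larger pseudocount, the replicate block, all samples with or without a repeat block, no trend, no dim probes, other readings of the rule, and leaving out each replicate.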

Additional observations from a re-analysis of the deposited data

How the results depend on the processing

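The number of genes meeting the rule, 17, was 22 after quantile normalization and 24 after division by array medians. It was 24 on means of repeats, 18 with no lowest mean and 7 with a lowest mean of 1. A paired reading that asked only for lower PSII light in every same-numbered pair gave 39. Without 1 replicate the number lay between 18 and 35. Over all probes, those lower without overlap numbered 175 as deposited, 231 after quantile normalization, 249 after division by array medians and 184 with no lowest mean. Counts over all probes are not given for the other readings, so nothing is read from those. Members passing the limma fit, 4, numbered 1 on values as deposited, 12 with median centring, 14 with repeats as a random block, 17 with all 6 as separate samples and 15 without the dimmest 25% of probes, where 92, 228, 365, 916 and 231 of all probes passed. Counts were 3 (109 probes) with a pseudocount of 1.93, 3 (126) without trend, 4 (103) with the replicate block, and 0 to 2 members and 20 to 140 probes without 1 replicate, which leaves fewer samples to test with. The members' median log2 difference, -0.39, was -0.14 with the larger pseudocount, by construction of that scale, and between -0.42 and -0.34 without 1 replicate. The fit with all 6 as separate samples counted repeat samples, whose deviations correlated, as independent replicates, so nothing is read from its counts. Apart from this, the fewer samples and that scale, the cause of these changes was not tested. Signs of the members' differences are fixed by their choice and add no support. With 3 replicates per group, the number of arrays limits what can be shown.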
